A study of Mus musculus with 4 samples.

Results

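The genes described here are 34 genes of cholesterol and fatty acid synthesis, taken by symbol from a table of 45802 mouse gene symbols, and all 34 had a value in each of the 4 libraries, as had 14415 genes in all. They were 18 enzymes of cholesterol synthesis (7 of the mevalonate pathway and 11 from squalene to cholesterol), 5 genes that control the pathway, 3 genes of sterol transfer and efflux, and 8 enzymes of fatty acid synthesis and desaturation. The libraries were total RNA of periosteal cells, the cells of the membrane that covers bone, from femurs and tibias of male mice aged 9 to 10 weeks. All animals carried *Pdgfra*-CreER and the mT/mG reporter and were given tamoxifen (150 mg/kg daily, 5 days in all), and cells were taken 14 days later. Cells in which the *Pdgfra* promoter drove the recombinase thereby turned from red to green membrane fluorescence. After 1 passage in medium with 15% FBS and 10 ng/mL bFGF, cells negative for CD31, CD45 and Ter119 were sorted into PDGFRα reporter+ (green) and PDGFRα reporter− (red) cells, with 2 libraries each, and a library pooled 3 to 6 mice. No untreated animals or freshly isolated cells were part of the comparison, and the reporter records promoter activity at the time of tamoxifen rather than at the time of sorting. The values were log2 values made equal in distribution across the libraries. Their linear unit is not given, so that single genes are compared between libraries and not with each other, and the depth is unknown. Where a list is summed, the sum weights its genes by their values in that unit and serves only to compare libraries.

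In the table the libraries carried the number 2 or 3 beside the population, which is used here only as a heading number. *Pdgfra* was at 7.78 and 7.62 in PDGFRα reporter+ libraries 2 and 3 and at 7.87 and 7.44 in PDGFRα reporter− libraries 2 and 3, so that the transcript did not separate the populations after culture. All 10 stromal markers had values in all 4 libraries. *Ptprc*, which encodes the CD45 antigen sorted against, was between −2.30 and −0.39, and *Pecam1*, which encodes CD31, between −4.79 and −1.11. In bulk RNA, a lower value from fewer cells of a type and one from less RNA per cell cannot be told apart.

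Cells build cholesterol from acetyl-CoA. The mevalonate pathway makes isoprenoid units, which are joined to squalene, closed to lanosterol and trimmed to cholesterol. The transcription factors SREBP-2 and SREBP-1 are held in the endoplasmic reticulum with SCAP by the INSIG proteins when sterols are plentiful, and are released and cut to their active form when sterols are scarce. SREBP-2 is best known for sterol genes and SREBP-1c for fatty acid genes, whereas the oxysterol receptors LXR drive the efflux transporters ABCA1 and ABCG1 when sterols are in excess. In bone, the mevalonate pathway is known as the target of nitrogen-containing bisphosphonates, which block farnesyl diphosphate synthase in osteoclasts.

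Promoters were read to show what the genes share in sequence. RefSeq windows of 250 bases before to 50 bases after the start (GRCm38.p6) were held for 26 of the 34 genes, and 4 short motifs were searched on both strands. The CCAAT box, the binding site of NF-Y, a partner of the SREBPs, was in 20 of 26 promoters (76.9%), against 41.1% of 27025 genes in the same table. It was in 14 of 15 cholesterol synthesis promoters, in 4 of 5 control genes and in 2 of 5 fatty acid genes (*Acly* and *Fasn*). Counting only the bases before the start, *Acly* dropped out, which left 1 of 5 fatty acid genes and 19 of 26 in all (73.1%, against 37.5% of genes). GGGCGG, the core of the GC box bound by Sp1, was in 22 of 26 (84.6%, against 38.2%). CACGTG, an E-box, was in 6 of 26 (23.1%, against 8.09%), and TCACNCCAC, the sterol regulatory element in its strict form, was in 1 of 26 (against 1.44%), which was *Hmgcs1*. A match is a description of letters and not a measured binding site. The 250 bases before the start are printed for 3 cholesterol synthesis genes and 2 fatty acid genes that were called between the heading numbers, 5′ to 3′ on the strand of the gene, with CCAAT (or its complement ATTGG) and TCACNCCAC in capitals.
Hmgcs1 (chr13:119690101-119690350, plus strand): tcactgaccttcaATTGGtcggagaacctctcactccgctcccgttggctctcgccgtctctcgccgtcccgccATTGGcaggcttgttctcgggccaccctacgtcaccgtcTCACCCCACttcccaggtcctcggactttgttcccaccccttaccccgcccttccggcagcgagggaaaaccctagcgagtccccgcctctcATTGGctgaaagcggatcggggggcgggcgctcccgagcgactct
Msmo1 (chr8:64733579-64733828, minus strand): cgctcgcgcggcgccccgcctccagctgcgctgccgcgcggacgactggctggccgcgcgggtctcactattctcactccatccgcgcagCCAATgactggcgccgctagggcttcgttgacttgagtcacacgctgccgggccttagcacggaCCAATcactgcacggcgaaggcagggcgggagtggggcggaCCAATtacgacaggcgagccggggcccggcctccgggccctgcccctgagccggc
Ebp (chrX:8193513-8193762, minus strand): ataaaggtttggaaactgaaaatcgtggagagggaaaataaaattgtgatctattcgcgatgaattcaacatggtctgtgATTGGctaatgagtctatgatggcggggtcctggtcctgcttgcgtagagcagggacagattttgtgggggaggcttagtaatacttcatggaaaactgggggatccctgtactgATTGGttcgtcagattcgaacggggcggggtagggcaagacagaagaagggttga
Fasn (chr11:120824548-120824797, minus strand): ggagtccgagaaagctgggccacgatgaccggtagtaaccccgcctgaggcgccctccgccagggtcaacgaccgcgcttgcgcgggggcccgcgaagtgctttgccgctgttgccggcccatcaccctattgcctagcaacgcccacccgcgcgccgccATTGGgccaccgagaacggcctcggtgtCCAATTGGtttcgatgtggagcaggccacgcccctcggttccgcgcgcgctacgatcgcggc
Fads2 (chr19:10101504-10101753, minus strand): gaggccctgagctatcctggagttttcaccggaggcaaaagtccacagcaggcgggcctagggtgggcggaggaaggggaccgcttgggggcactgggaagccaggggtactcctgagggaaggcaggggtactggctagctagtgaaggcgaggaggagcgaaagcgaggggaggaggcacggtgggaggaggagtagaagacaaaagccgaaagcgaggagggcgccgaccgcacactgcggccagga
In *Hmgcs1* the sterol regulatory element began 137 bases before the start, between CCAAT boxes at 176 and 45 bases. *Msmo1* held 3 CCAAT boxes, at 160, 96 and 55 bases, and *Ebp* held 2, at 170 and 55. *Fasn* held overlapping boxes in opposite directions, at 62 and 59 bases, and a further one at 90. The start used for the *Fasn* window lies inside the RefSeq span of the gene given with its values, so that the window is within that span. The window of *Fads2* held neither motif.

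Between the populations, none of the 34 genes passed the test. With limma over 14415 genes, 0 of 34 genes were called at an adjusted p under 0.05 and 0 at an unadjusted p under 0.05, against a background of 0% of all genes called and 131 genes at an unadjusted p under 0.05. With the heading number as a replicate block, 0 of 34 were called, against 0.201% of all genes. The log2 difference, PDGFRα reporter+ minus PDGFRα reporter−, ran from −0.64 (*Fads2*) to 0.35 (*Elovl6*), with a median of −0.05 over the 34 genes (12 above 0 and 22 below), whereas all genes had a median of −0.0035 with 49.1% above 0. The cholesterol synthesis enzymes had a median of −0.04 (7 above and 11 below), the control genes −0.10, the transfer and efflux genes 0.09 and the fatty acid enzymes −0.14 (2 above and 6 below). The sign of these medians rested on single libraries. Without PDGFRα reporter+ library 2 the cholesterol and fatty acid medians were 0.38 and 0.30, without PDGFRα reporter+ library 3 they were −0.38 and −0.40, and leaving out PDGFRα reporter− library 2 gave −0.22 and −0.30. Leaving out PDGFRα reporter− library 3 gave 0.17 and 0.06. In the same 4 settings *Fads2* ranged from −1.69 to 0.41 and *Elovl6* from −0.31 to 1.01. The populations did not overlap, with both PDGFRα reporter+ values the higher, in 1 of 34 genes, against 7.59% of all genes, and that gene was *Abca1*. With 2 libraries against 2, an exact two-sided permutation test of 1 gene cannot go below p = 0.333. Nothing in the labels says that the 2 libraries of a population came from separate animals, so that the spread behind these p-values may be partly technical.

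*Abca1* (chr4:53030789-53159988), the transporter that passes cholesterol to lipid-poor apolipoprotein, was at 4.52 and 4.53 in PDGFRα reporter+ libraries 2 and 3 and at 4.47 and 4.40 in PDGFRα reporter− libraries 2 and 3. The difference of 0.09 (SE 0.13, limma adjusted p = 1) was small beside its error. *Abcg1*, which passes cholesterol to HDL, was at −1.52 and −1.15 in PDGFRα reporter+ and at −1.50 and −0.75 in PDGFRα reporter−, and the ranges overlapped. *Stard4*, a carrier of cholesterol between membranes, was between −0.01 and 0.17 in 3 libraries and at 0.96 in PDGFRα reporter+ library 3.

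**Figure D1:**
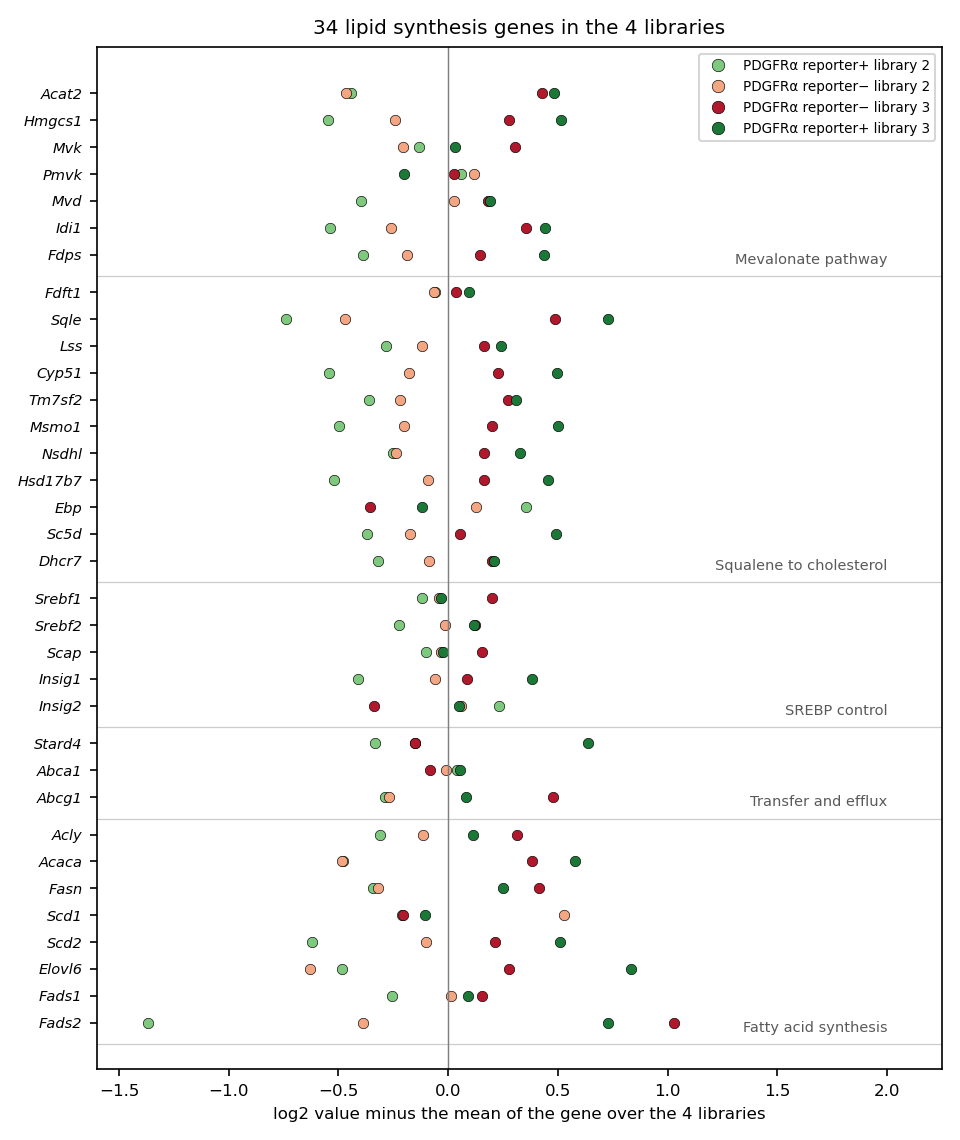
Log2 value of each of the 34 genes minus its mean over the 4 libraries (horizontal axis), 1 point per library, with genes in rows by role. In most rows the light points (libraries 2) lie left of 0 and the dark points (libraries 3) right of 0, and in 13 of 18 cholesterol synthesis rows PDGFRα reporter+ library 2 is the lowest of the 4.

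Split by heading number, the small overall difference between the populations was made of opposite values in the sterol genes. In the libraries numbered 2 the cholesterol synthesis enzymes had a median difference of −0.20, with 14 of 18 lower in PDGFRα reporter+, and in those numbered 3 a median of 0.13, with 16 of 18 higher. Of the 11 enzymes from squalene to cholesterol, 11 were higher in PDGFRα reporter+ in number 3 (median 0.24) and 9 were lower in number 2 (median −0.20). The medians over all genes were 0.0011 and −0.02. Lower in PDGFRα reporter+ in number 2 and higher in number 3 were 13 of 18 cholesterol synthesis enzymes, 1 of 5 control genes (*Insig1*), 1 of 3 transfer and efflux genes (*Stard4*) and 2 of 8 fatty acid enzymes (*Scd1* and *Scd2*), against 24.9% of all genes. The difference between the numbers in the population difference was not tested for any gene, since each library stands alone in its population and number.

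*Hsd17b7*, a reductase of the C-4 demethylation steps, showed this most among the sterol enzymes. It was at 1.24 and 1.67 in PDGFRα reporter+ and PDGFRα reporter− libraries 2, a difference of −0.43, and at 2.22 and 1.93 in libraries 3, a difference of 0.29. *Cyp51*, lanosterol demethylase, differed by −0.36 and 0.27, and *Msmo1*, the C-4 methylsterol oxidase, by −0.30 and 0.30. *Insig1*, the sterol-sensitive brake of the pathway and itself an SREBP target, differed by −0.35 in number 2 and by 0.29 in number 3. The exceptions among the 18 enzymes were *Acat2*, *Fdft1* and *Ebp*, which were higher in PDGFRα reporter+ at both numbers, *Pmvk*, which was lower at both, and *Mvk*, which was higher and then lower.

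Among the 8 fatty acid enzymes, 6 kept 1 sign at both numbers, beside 6753 of 14415 genes in all. In number 2 the differences of *Acaca* (0.005) and *Fasn* (−0.02) were very small. *Fads1*, *Fads2*, *Acly* and *Fasn* were lower in PDGFRα reporter+ at both numbers and *Acaca* and *Elovl6* higher at both, with medians over the 8 genes of −0.23 in number 2 and 0.02 in number 3. *Acly* differed by −0.20 at each number. *Fads2* differed by −0.98 and −0.30, the lowest value of the 34 genes at number 2.

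**Figure D2:**
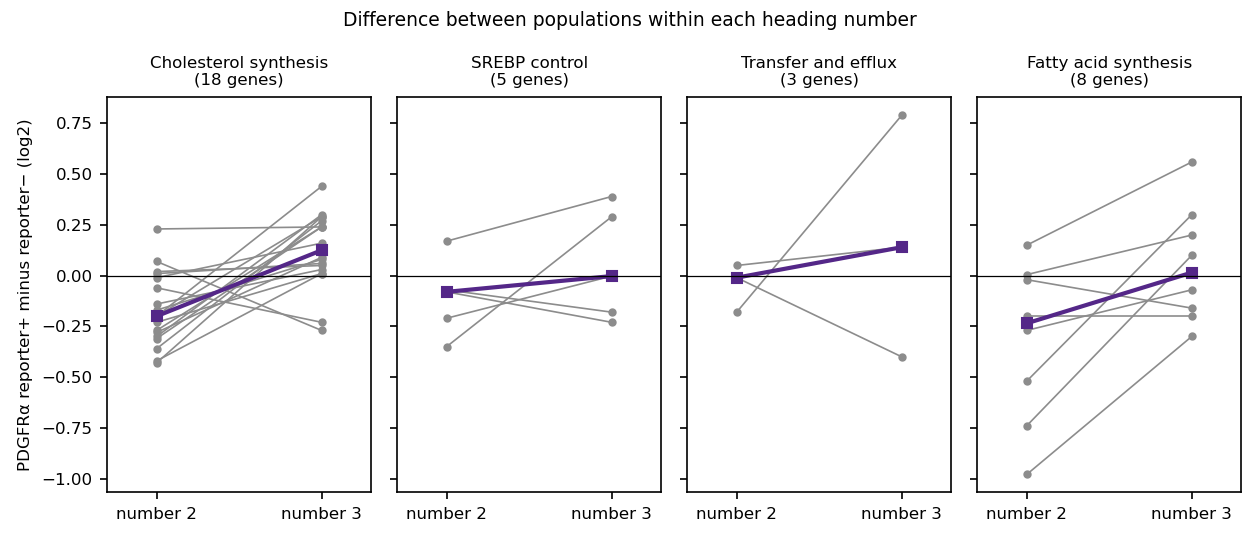
Difference between the populations (PDGFRα reporter+ minus PDGFRα reporter−, log2, vertical axis) within heading numbers 2 and 3, in 1 panel per role. Thin grey lines are genes and the thick purple line is their median, which goes from −0.20 to 0.13 for cholesterol synthesis and from −0.23 to 0.02 for fatty acid synthesis.

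The proliferation markers, 10 genes of the cell cycle, showed the same split. They were lower in PDGFRα reporter+ in number 2 (median −0.63, 9 of 10 lower) and higher in number 3 (median 0.35, 8 of 10 higher), and 7 of 10 did both. Their summed level, as log2 of the summed linear values, was 4.71 in PDGFRα reporter+ library 2, 5.03 in PDGFRα reporter− library 2, 5.21 in PDGFRα reporter− library 3 and 5.49 in PDGFRα reporter+ library 3. In the same order of libraries, the summed level of the 18 cholesterol synthesis enzymes was 5.96, 6.11, 6.49 and 6.66. The order of the proliferation sum was that of *Pcna* (3.79, 3.80, 4.16 and 4.42) and not that of the list as a whole. The median deviations of the 10 markers from their means were −0.57, 0.11, 0.02 and 0.39, with PDGFRα reporter− library 2 above PDGFRα reporter− library 3, and *Mki67*, *Top2a*, *Ccnb1*, *Aurka* and *Bub1* were also higher in PDGFRα reporter− library 2 than in PDGFRα reporter− library 3. The part of proliferation in the values of the sterol genes was not tested.

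Between heading numbers the genes differed by more than between populations. In a limma fit with population as covariate, 14 of 34 genes were called. Of these, 13 were higher in libraries 3, against 11.5% of all genes, and 1 was lower, against 9.79% of all genes. They were 4 of 7 mevalonate enzymes, 4 of 11 squalene to cholesterol enzymes and 6 of 8 fatty acid enzymes. Of the 5 control genes and the 3 transfer and efflux genes 0 were called, and 2 and 0 had an unadjusted p under 0.05. Such a p was found for 20 of 34 genes (58.8%), against 34.8% of all genes. Both libraries 3 lay above both libraries 2 in 28 of 34 genes, against 36.4% of all genes, and below them in 3 genes (*Pmvk*, *Ebp* and *Insig2*), against 28.8%. The median log2 difference, number 3 minus number 2, was 0.49 over the 34 genes, 0.56 for cholesterol synthesis, 0.69 for fatty acid synthesis, 0.17 for the control genes and 0.48 for transfer and efflux, beside 0.05 over all genes. The fit behind these calls took the 2 libraries of a number, 1 of each population, as replicates. The labels do not say whether those came from separate animals. The spread behind its p-values may thus be only that between sorted populations of the same animals. The calls also rested on the moderation and on each library. Without a trend in the moderation 0 of 34 genes (and 0 genes in all) were called, and 13 of 34 (38.2%) had an unadjusted p under 0.05, against 27.1% of all genes. Without PDGFRα reporter+ library 2 the count was 0, without PDGFRα reporter+ library 3 it was 3, without PDGFRα reporter− library 2 it was 1 and without PDGFRα reporter− library 3 it was 5.

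In the mevalonate pathway, *Acat2*, the cytosolic thiolase of the first condensation, was at 2.27 and 2.25 in PDGFRα reporter+ and PDGFRα reporter− libraries 2 and at 3.19 and 3.14 in libraries 3. The difference was 0.91 (SE 0.13, limma adjusted p = 0.0018), a 1.88-fold higher value, and the populations differed by 0.02 in number 2 and by 0.05 in number 3. Its close copy *Acat3* was listed at 0.50 to 1.71, and reads shared by both could not be separated here. *Hmgcs1* (chr13:119690351-119708260), which makes HMG-CoA, was at 2.59 and 2.90 in libraries 2 and at 3.65 and 3.42 in libraries 3, a 1.73-fold higher value (log2 difference 0.79, SE 0.15, limma adjusted p = 0.00749). *Idi1*, the isomerase of the isoprenoid unit, was at 0.24 and 0.52 and then at 1.22 and 1.13 (0.80, SE 0.21, limma adjusted p = 0.026). *Fdps*, farnesyl diphosphate synthase, was at 3.06 and 3.26 and then at 3.88 and 3.59 (0.58, SE 0.15, limma adjusted p = 0.0232). In each of *Hmgcs1*, *Idi1* and *Fdps* the PDGFRα reporter+ libraries were both the lowest and the highest of the 4. The kinases *Mvk* and *Pmvk* and the decarboxylase *Mvd*, which act between these steps, had differences of 0.34, −0.18 and 0.37 and were not called.

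From squalene onward, *Sqle* (chr15:59315092-59331193), squalene epoxidase and a main point of control of the pathway, had the largest difference of the cholesterol genes. It was at 1.63 and 1.89 in PDGFRα reporter+ and PDGFRα reporter− libraries 2 and at 3.09 and 2.85 in libraries 3, a 2.32-fold higher value (log2 difference 1.21, SE 0.16, limma adjusted p = 0.00123). *Cyp51* (chr5:4080674-4104697) was at 1.68 and 2.05 and then at 2.72 and 2.45 (0.72, SE 0.18, limma adjusted p = 0.021). *Msmo1* was at 2.08 and 2.38 and then at 3.08 and 2.78 (0.70, SE 0.17, limma adjusted p = 0.0191). These 3 genes had the libraries in the same order, with PDGFRα reporter+ library 2 lowest and PDGFRα reporter+ library 3 highest.

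*Ebp* (chrX:8185329-8193512), the sterol isomerase of the late pathway, went the other way from its neighbours. Its values were 2.67 and 2.44 in libraries 2 and 2.20 and 1.96 in libraries 3, a log2 difference of −0.48 (SE 0.14, limma adjusted p = 0.0431). The drop was of like size in PDGFRα reporter+ (−0.47) and PDGFRα reporter− (−0.48).

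Another 4 enzymes of the branch had an unadjusted p under 0.05 and were not called. *Hsd17b7* has its values above and differed by 0.62 between the numbers (limma adjusted p = 0.0576). *Nsdhl*, its partner in C-4 demethylation, was at 1.44 and 1.45 in libraries 2 and at 2.02 and 1.85 in libraries 3. *Sc5d*, the lathosterol desaturase, was at 1.38 and 1.58 and then at 2.25 and 1.81. *Tm7sf2*, a C-14 sterol reductase, was at 0.26 and 0.41 and then at 0.94 and 0.90, and shares 532 bases on the same strand with *Vps51*. Of the remaining enzymes, *Fdft1*, which makes squalene, differed by 0.13, *Lss*, which closes the ring, by 0.40, and *Dhcr7*, the last reductase, by 0.41. *Fdft1* overlaps *Ctsb* on the opposite strand, which was listed at 7.57 to 8.15. Opposite-strand genes also overlap *Cyp51* (*Akap9*), *Srebf1* (*Rai1*) and *Acaca* (*Gm11437*), and whether the counting used the strand is not given in the sources used here.

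None of the control genes was called. *Srebf2*, which encodes SREBP-2, was at 2.13 and 2.33 in PDGFRα reporter+ and PDGFRα reporter− libraries 2 and at 2.47 in both libraries 3, a difference of 0.24 (SE 0.15, limma adjusted p = 0.281). *Srebf1*, which encodes SREBP-1, was at 3.62 and 3.70 and then at 3.71 and 3.94 (0.17, SE 0.12, limma adjusted p = 0.375). *Scap* differed by 0.13. *Insig1* was at 2.66 and 3.01 and then at 3.45 and 3.16, differing by 0.79 in PDGFRα reporter+ but by 0.15 in PDGFRα reporter− (0.47 over both, limma adjusted p = 0.0776). *Insig2*, the form whose transcription is not driven by the SREBPs, was at 3.81 and 3.64 and then at 3.63 and 3.24 (−0.29, limma adjusted p = 0.138). The INSIG genes thus had values of opposite sign, neither of them called.

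In fatty acid synthesis, *Fads2* (chr19:10062765-10101503), the delta-6 desaturase of polyunsaturated fatty acids, had the largest difference of all 34 genes. It was at 1.05 and 2.03 in PDGFRα reporter+ and PDGFRα reporter− libraries 2 and at 3.14 and 3.45 in libraries 3, a 3.38-fold higher value (log2 difference 1.76, SE 0.18, limma adjusted p = 0.0003). *Elovl6*, which extends palmitate, was at 1.52 and 1.37 and then at 2.83 and 2.28 (1.11, SE 0.17, limma adjusted p = 0.00201). *Acaca*, acetyl-CoA carboxylase, was at 2.51 in both libraries 2 and at 3.57 and 3.37 in libraries 3 (0.96, SE 0.13, limma adjusted p = 0.00128). *Fasn* (chr11:120805958-120825166), fatty acid synthase, was at 3.67 and 3.69 and then at 4.26 and 4.42, a 1.58-fold higher value (0.66, SE 0.12, limma adjusted p = 0.00493). *Acly*, which supplies cytosolic acetyl-CoA to both pathways, was at 4.68 and 4.88 and then at 5.11 and 5.30, with a difference of 0.43 in each population (limma adjusted p = 0.0281). *Fads1*, the delta-5 desaturase, differed by 0.24 and was not called.

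The stearoyl-CoA desaturases, which make monounsaturated fatty acids, had differences of opposite sign. *Scd2* (chr19:44293676-44306864) was at 4.16 and 4.69 in PDGFRα reporter+ and PDGFRα reporter− libraries 2 and at 5.30 and 5.00 in libraries 3 (0.72, SE 0.18, limma adjusted p = 0.0208). *Scd1* (chr19:44394450-44407709) was at 4.53 and 5.27 and then at 4.63 and 4.53, with PDGFRα reporter− library 2 the highest and the numbers overlapping (−0.31, SE 0.18, limma adjusted p = 0.255). Of the related genes, *Scd4* was listed at −3.07 to −2.02 and *Scd3* had no value.

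**Figure D3:**
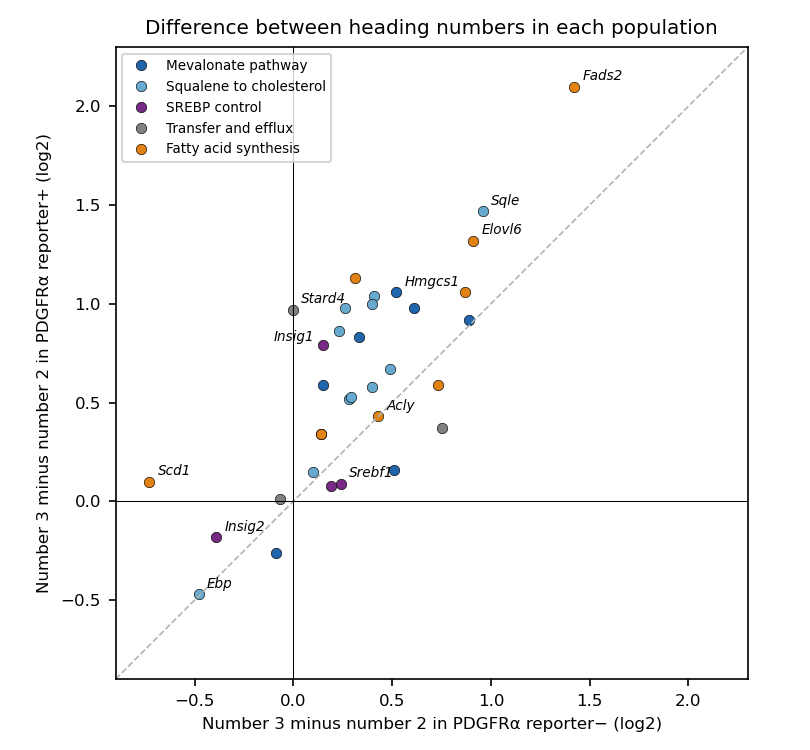
Difference between heading numbers (number 3 minus number 2, log2) in PDGFRα reporter− (horizontal axis) and PDGFRα reporter+ (vertical axis), 1 point per gene, colored by role, with the line of equal differences dashed. *Fads2* is farthest from 0 at 1.42 and 2.10, *Ebp* lies below 0 on both axes, and 27 of 34 points lie above the dashed line.

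In both pathways the signed difference, number 3 minus number 2, was the higher in PDGFRα reporter+ for most enzymes. Cholesterol synthesis differed between numbers by a median of 0.75 in PDGFRα reporter+ but of 0.36 in PDGFRα reporter−, and the signed difference was the higher in PDGFRα reporter+ for 16 of 18 enzymes. For fatty acid synthesis the medians were 0.82 and 0.58, with 6 of 8 higher in PDGFRα reporter+ (*Scd1*, at 0.10 and −0.73, among them), and over all genes 6783 of 14415 were higher there. PDGFRα reporter+ library 3 was the highest of the 4 for 15 of 18 cholesterol synthesis enzymes and 3 of 8 fatty acid enzymes, beside 27.7% of all genes. PDGFRα reporter− library 3 was the highest for 4 of 8 fatty acid enzymes (*Acly*, *Fasn*, *Fads1* and *Fads2*) and for 1 of 18 cholesterol synthesis enzymes (*Mvk*), beside 29.1% of all genes. The summed level of the fatty acid enzymes was 6.69 in PDGFRα reporter+ library 2, 7.07 in PDGFRα reporter− library 2, 7.32 in PDGFRα reporter− library 3 and 7.34 in PDGFRα reporter+ library 3. As a description, the median over the fatty acid enzymes was 0.10 below that over the cholesterol enzymes in the comparison of populations (a value of −0.10) and 0.13 above it in the comparison of numbers, and no test was made of either. With 1 library left out the values ran from −0.12 to −0.02 (the latter without PDGFRα reporter+ library 3) and from 0.06 (PDGFRα reporter− library 3 left out) to 0.21 (PDGFRα reporter+ library 3 left out), and a pseudocount of 1 took the second to 0.26.

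Markers of other cells moved with these comparisons. The 8 adipocyte markers had a summed level of 4.04 and 3.65 in PDGFRα reporter+ and PDGFRα reporter− libraries 2 and of 6.14 and 7.83 in libraries 3. *Adipoq*, the adipokine that defines fat cells, was blank in PDGFRα reporter+ library 2, at −5.69 in PDGFRα reporter− library 2, at 2.74 in PDGFRα reporter+ library 3 and at 5.20 in PDGFRα reporter− library 3. *Plin1*, which coats fat droplets, was blank in both libraries 2 and at 0.30 and 3.03 in libraries 3, and *Lep* was blank in all 4. *Fabp4* and *Pparg* differed between the numbers by 4.26 and 2.56 (limma adjusted p = 0.000106 and 0.00019). The adipocyte list was highest in PDGFRα reporter− library 3. Of the 8 fatty acid enzymes, 4 were highest in that library (*Fasn*, *Acly*, *Fads1* and *Fads2*), 3 in PDGFRα reporter+ library 3 (*Acaca*, *Scd2* and *Elovl6*) and *Scd1* in PDGFRα reporter− library 2. The part of the adipocyte markers in the values of the 34 genes was not tested.

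The 12 macrophage markers had summed levels of 7.98 and 8.20 in PDGFRα reporter+ libraries 2 and 3 and of 6.63 and 7.55 in PDGFRα reporter− libraries 2 and 3, with 12 of 12 higher in PDGFRα reporter+ and 0 called by limma (5 at an unadjusted p under 0.05). With the heading number as a block, 2 of 12 were called (*Tyrobp* and *C1qb*), against 0.201% of all genes, and 11 had an unadjusted p under 0.05, against 6.33% of all genes. Under the block without a trend 0 genes were called in the whole table. The endothelial markers summed to 1.96 and 1.74 in PDGFRα reporter+ and to 2.35 and 2.69 in PDGFRα reporter−. Of the 7 with a value in all 4 libraries, 7 were lower in PDGFRα reporter+ (median −1.82), with *Cdh5* at −4.26 and *Pecam1* at −3.19, and 0 were called (4 at an unadjusted p under 0.05). Between the heading numbers the macrophage markers had a median difference of 0.59, with 11 of 12 higher in libraries 3 and 6 of 12 called as higher, against 11.5% of all genes. Among them were *Adgre1* (1.05) and *Mrc1* (0.90). Of the proliferation markers, 9 of 10 were higher in libraries 3 (median 0.43), and 3 were called, *Mcm2* (1.21), *Mcm5* (1.73) and *Pcna* (0.49).

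The stromal markers summed to 11.06 and 11.52 in PDGFRα reporter+ libraries 2 and 3 and to 10.89 and 11.20 in PDGFRα reporter− libraries 2 and 3. Between the numbers 5 of 10 were called, against 21.3% of all genes in either direction, with *Postn* (3.03) and *Col3a1* (1.03) higher in libraries 3 and *Col1a2* (−0.54), *Prrx1* (−0.54) and *Thy1* (−0.53) lower, and the median was −0.20. Between the populations 0 of 10 were called by limma (1 at an unadjusted p under 0.05, *Dcn*). *Dcn* was higher in both PDGFRα reporter+ libraries, at 7.47 and 8.49 against 6.67 and 6.51 (difference 1.39), and *Postn* differed by −1.14 with overlapping values. As with the 34 genes, 0 of these markers were called between the numbers without a trend in the moderation. The part of the macrophage, endothelial, proliferation and stromal markers in the values of the lipid genes was not tested.

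**Figure D4:**
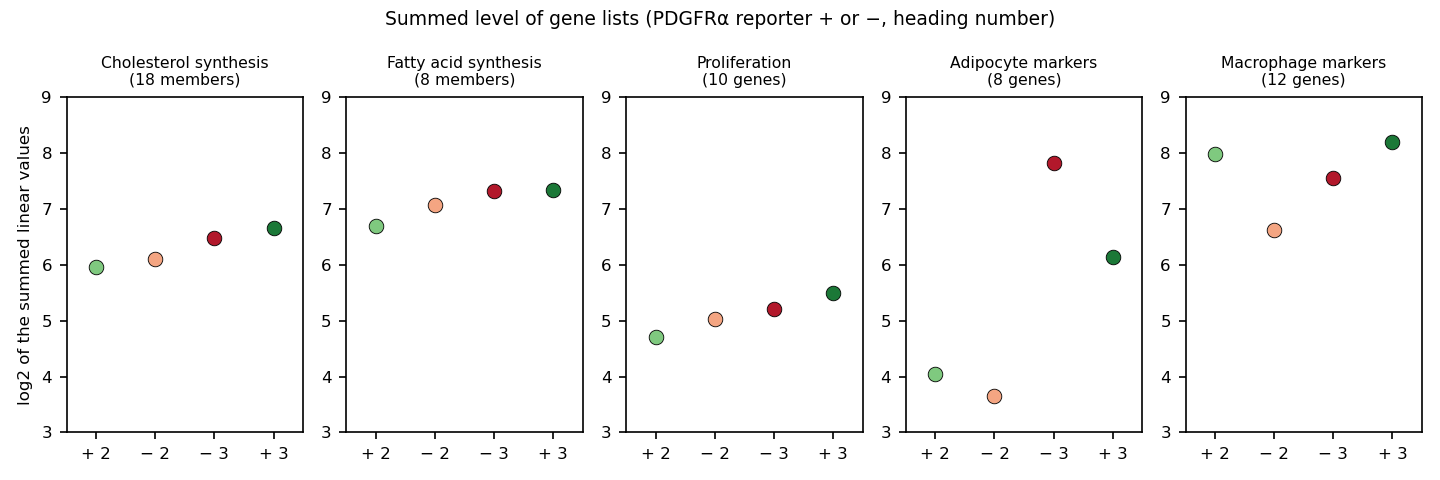
Summed level of gene lists, as log2 of the summed linear values (vertical axis), in the 4 libraries (+ and − for the PDGFRα reporter, 2 and 3 for the heading number). The sums of cholesterol synthesis (5.96 to 6.66) and of proliferation (4.71 to 5.49) are lowest in PDGFRα reporter+ library 2 and highest in PDGFRα reporter+ library 3, and the adipocyte markers are highest in PDGFRα reporter− library 3 at 7.83.

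A wider list of 57 pathway genes, of which 53 had a value in all 4 libraries, covered isoprenoid use, other SREBP targets, sterol handling and further fatty acid genes. Between the populations 0 of 53 were called by limma and 1 had an unadjusted p under 0.05, *Cyp7b1*, an oxysterol hydroxylase. It was at 3.72 and 3.94 in PDGFRα reporter+ libraries 2 and 3 and at 2.96 and 2.89 in PDGFRα reporter−, a difference of 0.90 (SE 0.16, limma adjusted p = 1). With the heading number as a block it was the 1 gene of 53 called (limma adjusted p = 0.0437), against 0.201% of all genes. Under the block without a trend 0 of 53 were called. *Elovl7*, an elongase, had the largest difference (1.18, SE 0.52), with 0.07 in PDGFRα reporter+ library 3 and between −1.79 and −1.06 in the others. Between the numbers 7 of 53 were called (13.2%), below the 21.3% of all genes called in either direction, and the median difference was 0.06, beside 0.05 over all genes. Without a trend in the moderation 0 of 53 were called, without a filter 3, and with 1 library left out 0 (PDGFRα reporter+ library 2 or PDGFRα reporter− library 2), 1 (PDGFRα reporter+ library 3) or 3 (PDGFRα reporter− library 3). Its sublists had medians of different sign. The sterol handling genes had a median of −0.21, with 10 of 13 below 0 and 4 of 13 called (30.8%), 2 in each direction. The further fatty acid genes had a median of 0.21, with 14 of 19 above 0 and 1 of 19 called, and the isoprenoid genes and other SREBP targets had medians of 0.10 and −0.07. Of the 4 that were higher in libraries 3, *Tmem97*, an SREBP target that binds sterols, was at 1.92 and 1.68 in PDGFRα reporter+ and PDGFRα reporter− libraries 2 and at 2.68 and 2.46 in libraries 3 (0.77). *Nr1h3*, which encodes LXRα, was at 0.45 and −0.19 and then at 0.97 and 1.40 (1.05). *Ch25h*, which makes 25-hydroxycholesterol, was at −2.68 and −3.80, with −1.09 as the lower of libraries 3 (2.19), and *Pdss1*, of ubiquinone synthesis, at −2.88 and −2.92 and then at −1.73 and −0.72 (1.67). The other 3 were lower in libraries 3. *Cyp27a1*, sterol 27-hydroxylase, was at −0.34 and −0.45 and then at −3.21 and −2.10 (−2.26). *Acacb*, the mitochondrial acetyl-CoA carboxylase, was at −0.23 and −0.46 and then at −2.57 and −1.83 (−1.85), and *Scarb1*, the HDL receptor, at 2.67 and 2.47 and then at 0.67 and 1.00 (−1.73). A further 7 genes had an unadjusted p under 0.05 and were not called, with differences of 0.40 (*Ggps1*), 0.36 (*Coq2*), 0.39 (*Me1*), 0.39 (*Elovl1*), 0.58 (*Acsl3*), 0.54 (*Gpam*) and −0.29 (*Lipa*). Called or not, 14 of 53 genes (26.4%) had an unadjusted p under 0.05, below the 34.8% of all genes. *Acaca* and *Acacb*, which encode the carboxylases of synthesis and of the control of fatty acid oxidation, thus differed in opposite directions.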

How the data were processed

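Expression was deposited as log2 values that the authors had quantile normalized, in 4 columns with 1 row for each gene symbol. Cells without a value were blank, and each library had quartiles of −1.47, 1.48 and 3.00. Per the labels and methods, stranded paired-end total RNA libraries were sequenced on an Illumina instrument, and the submitters' processing notes name bcl2fastq 2.17.1.14, Partek 7.0 and GRCm38.p6. The aligner, the counting, the annotation and the linear unit are not given in the sources used here, so that depth and counting error are unknown.

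Column headings carry the numbers 2 and 3 whereas the labels number replicates 1 and 2, so that columns were matched to their population only. The test was made on the 14415 genes valued in every library, using limma 3.58.1 (R 4.3.3, eBayes with a trend, two-sided) with Benjamini-Hochberg adjustment and a threshold of 0.05, without a block for the populations and with population as covariate for the heading numbers. Log2 differences are differences of means. The fits were run on simulated data in which only the compared groups differed. The population fit was thus not tried beside a difference between heading numbers. Positions were taken from RefSeq by symbol (34 of 34 found), and promoters from RefSeq windows (GRCm38.p6). Overlapping genes were taken from GENCODE M21. Python 3.11.15 was used for summaries (pandas 2.3.3, numpy 2.4.6, scipy 1.17.1) and for plots (matplotlib 3.10.9).

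The genes, the lists and the tests were chosen with earlier results of these data known, and no list was tested as a set. Every one of the 34 genes is named. Values in all 4 libraries are given for genes whose populations did not overlap, for genes with an unadjusted p under 0.05 in either comparison and for 10 genes chosen for their role. Of the wider pathway list, genes with an unadjusted p under 0.05 or the largest difference are named, and of the markers those beside a result. Alternatives were moderation without a trend, a pseudocount of 1 on the linear values, centering on the median, only genes with a mean of at least 0, no filter with blanks at the lowest value, the heading number as a block (with and without a trend), no population covariate, each library left out, and a promoter window without the bases after the start.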

Additional observations from a re-analysis of the deposited data

Results flagged for a closer look

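The cholesterol synthesis enzymes took opposite directions between the populations at the heading numbers: 13 of 18 were lower in PDGFRα reporter+ library 2 than in PDGFRα reporter− library 2 and higher in PDGFRα reporter+ library 3 than in PDGFRα reporter− library 3. The difference between the numbers was not tested, since each combination of population and number is 1 library. The same held for 7 of 10 proliferation markers and 24.9% of all genes.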

How the results depend on the processing

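Depth is unknown and each population has 2 libraries, which limits every value. Between the populations, 0 of 34 genes were called under all alternatives, whereas the count over all genes went from 0 to 29 with the heading number as a block and that of the wider pathway list from 0 to 1 (*Cyp7b1*). With the block and no trend both counts were 0 (941 and 1 at an unadjusted p under 0.05). The numbers are not shown by the labels to pair the libraries. Deviations from the population mean had a correlation of 0.681 across 14415 genes, which are not independent replicates, between libraries with the same number. With that replicate block *Fads2* had an unadjusted p of 0.00626 (limma adjusted p = 0.339, 0.339 to 1 over the alternatives), and the block changed no call of the 34 genes. The fatty acid minus cholesterol median (−0.10) ran from −0.12 to −0.02 with 1 library left out, and the medians from −0.38 to 0.38 (cholesterol) and −0.40 to 0.30 (fatty acid). The sign of 22 of 25 genes changed when 1 library was left out, with log2 differences from PDGFRα reporter− in the ranges *Abcg1* −0.58 to 0.17, *Acaca* −0.43 to 0.63, *Acat2* −0.43 to 0.50, *Acly* −0.41 to 0.02, *Cyp51* −0.57 to 0.47, *Ebp* −0.01 to 0.47, *Elovl6* −0.31 to 1.01, *Fads2* −1.69 to 0.41, *Fasn* −0.46 to 0.27, *Fdps* −0.37 to 0.46, *Hmgcs1* −0.57 to 0.50, *Hsd17b7* −0.56 to 0.42, *Idi1* −0.59 to 0.39, *Insig1* −0.42 to 0.37, *Msmo1* −0.50 to 0.50, *Nsdhl* −0.21 to 0.36, *Sc5d* −0.31 to 0.55, *Scd1* −0.69 to 0.05, *Scd2* −0.68 to 0.45, *Sqle* −0.75 to 0.72, *Srebf2* −0.28 to 0.07 and *Tm7sf2* −0.39 to 0.28, and that of *Sqle* also with a pseudocount of 1 (0.0024).

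Between the numbers, 3065 genes were called, with 0 under moderation without a trend, 1825 with a pseudocount of 1, 1256 without a filter and 142 to 878 with 1 library left out. For the 34 genes the count of 14 became 0 without a trend, 6 with a pseudocount, 6 without a filter, 9 without the population covariate and 0 to 5 with 1 library left out. For the wider list the count of 7 became 0 without a trend, 4 with a mean of at least 0, 3 without a filter and 0 to 3 with 1 library left out. The cholesterol median fell to 0.40 with a pseudocount, which raised the fatty acid minus cholesterol median from 0.13 to 0.26 (0.06 to 0.21 with 1 library left out), and the fatty acid median ran from 0.56 to 0.82. With 1 library left out, *Scd1* ran from −0.68 to 0.05 and *Abca1* from −0.10 to 0.04. With 1 library left out, the comparison of numbers had no population covariate, and the lone library of a group was taken to vary like the others. The cause of these changes was not tested.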
